A study of Mus musculus with 15 samples.

Results

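Adipose progenitors and fibroblasts of brown fat were followed through 9 marker genes, Pdgfra, Pdgfrb, Cd34, Ly6a, Dlk1, Dpp4, Pi16, Mfap5 and Cd248. A probe set counted for a gene only if it carried that symbol alone, and where a gene had several the brightest on average over the 15 arrays was read. Probe sets were found for 8 of the 9 genes. All 8 lay above the filter on dim signals and were among 13174 genes tested, of 18194 genes with a probe set of their own. No probe set was listed under Ly6a in the annotation used here, so Ly6a, a surface antigen of mouse progenitors also called Sca-1, has no value below.

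The arrays measured RNA of interscapular brown adipose tissue, the heat-producing fat between the shoulder blades, from adult male wild-type C57BL/6N mice fed a high-fat diet. The aFGFR1/KLB group (mice 41 to 45) had received bFKB1, an antibody that activates the FGF receptor FGFR1 in complex with KLB, at 10 mg/kg in a lone injection. The FGF21 group (mice 36 to 40) had received human FGF21, the hormone that signals through that receptor pair, at 1 mg/kg in each of 2 daily injections. For the control group (mice 31 to 35) the labels name no injected substance. Tissue was taken on day 5 in the treated groups, and each group had 5 biological replicates with 1 array each. They are called mice below, although the labels do not say whether tissue was pooled.

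Adipocytes arise from stromal progenitors that carry the PDGF receptor alpha chain. In mouse fat depots, cells with Dpp4, Pi16 and Cd55 lie in the connective tissue around lobules and vessels and can give rise to more committed preadipocytes, which lose those markers. FGFR1 and KLB are both found in adipocytes. The arrays read whole tissue, adipocytes and stromal cells together. A lower value in such bulk tissue can come from fewer cells of a type or from less of the RNA per cell, and these cannot be told apart.

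The tissue carried the markers of brown adipocytes at high levels in every array: Ucp1, the uncoupling protein, lay between 14.52 and 14.82 and Adipoq, adiponectin, between 14.06 and 14.23 on the log2 intensity scale, which is used throughout. Control 34 and FGF21 36 stood apart from the other arrays. Col1a1, a fibrillar collagen, read 12.18 in FGF21 36 and 12.38 in control 34, where the medians of their groups were 10.32 (FGF21) and 9.55 (control). Adgre1, a macrophage surface receptor, read 10.56 in FGF21 36 and 9.82 in control 34. Ckm, a muscle enzyme, ranged from 5.74 to 13.58 over the FGF21 arrays, with its highest value in FGF21 36. An aFGFR1/KLB array reached 13.49, and control 34 read 10.05, the control median, so Ckm did not set the 2 arrays apart. The mean of 13 muscle genes was highest in aFGFR1/KLB 45 (13.12), with FGF21 36 at 13.02. Upk3b, which marks mesothelium, was below the filter. Each comparison is therefore given with all arrays and without control 34 and FGF21 36.

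Upstream sequence is shown for Cd34, Dpp4 and Pi16, since the correlations below turn on them and the table used (RefSeq, GRCm38.p6) holds bases upstream of their outermost annotated start. The stretches are chr1:194938571-194938820 on the plus strand for Cd34, chr2:62412316-62412481 on the minus strand for Dpp4 and chr17:29318632-29318795 on the plus strand for Pi16. Capitals mark TATAAA, the TATA box, and CATTCC, the core bound by TEAD factors.
Cd34: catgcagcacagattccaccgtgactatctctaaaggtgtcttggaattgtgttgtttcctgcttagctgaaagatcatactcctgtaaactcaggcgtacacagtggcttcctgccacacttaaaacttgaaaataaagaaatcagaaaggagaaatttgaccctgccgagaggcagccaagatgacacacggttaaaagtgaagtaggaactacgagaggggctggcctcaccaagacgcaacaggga
Dpp4: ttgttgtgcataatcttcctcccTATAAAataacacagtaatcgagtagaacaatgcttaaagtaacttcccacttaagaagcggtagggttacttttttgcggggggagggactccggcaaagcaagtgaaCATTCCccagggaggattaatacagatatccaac
Pi16: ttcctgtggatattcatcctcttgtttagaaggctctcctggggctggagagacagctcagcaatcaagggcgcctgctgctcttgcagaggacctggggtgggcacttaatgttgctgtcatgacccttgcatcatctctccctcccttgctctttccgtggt

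Promoter windows of 250 bases before a start listed for the gene were in the table for 5 of the 9 genes (Pdgfra, Cd34, Dlk1, Dpp4 and Pi16). They were searched on both strands for 6 short motifs, and no hits overlapped. Positions count back from the end of the 250-base window. For Dpp4 and Pi16 that end lies past the outermost annotated start, where the printed stretches stop after 166 and 164 bases. TATAAA was found in Dpp4, starting at position −227 of the window, and in 12.4% of 32851 promoter windows. CATTCC was found in Dpp4 at −118, and in 12.6% of windows. CCAAT, the CCAAT box, was found in Pi16 at −64, in a stretch not printed because it lies past the outermost annotated start, and in 33.8% of windows. GGGCGG (GC box, 32.7% of windows), CACGTG (E-box, 6.02%) and TGACTCA (AP-1, 4.46%) were in none of the 5 windows. No motif searched was found in more than 1 of these genes.

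The PDGF receptors come first among the markers. Pdgfra, the receptor chain that defines adipose progenitors and fibroblasts, read 8.87, 8.60, 8.83, 8.63 and 8.93 in aFGFR1/KLB mice 41 to 45. In FGF21 mice 36 to 40 it read 9.94, 8.69, 9.28, 9.31 and 9.22. The controls 31 to 35 read 8.80, 8.40, 8.34, 10.16 and 8.97. Control 34 and FGF21 36 were the highest arrays, 4 of 5 FGF21 values lay above every aFGFR1/KLB value, and the 5 aFGFR1/KLB values all fell inside the range of the controls. Pdgfra averaged 8.77 ± 0.15 with aFGFR1/KLB, 9.29 ± 0.44 with FGF21 and 8.94 ± 0.74 in controls (SD, n = 5 each). The log2 fold change, fitted with limma over the 3 groups for all genes tested and with p adjusted over those genes, was −0.17 ± 0.29 (SE) for aFGFR1/KLB against control and 0.35 ± 0.29 for FGF21 against control (adjusted p = 0.824 and 0.559). Without control 34 alone, Pdgfra was higher with FGF21 by 0.66 (adjusted p = 0.0369). With FGF21 36 left out as well, the difference was 0.50 ± 0.16 (adjusted p = 0.0503, just above the threshold of 0.05).

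Pdgfrb, the beta receptor chain, is carried by mural cells of vessels and by many fibroblasts. It read 9.64, 9.47, 9.69, 9.62 and 9.91 in aFGFR1/KLB mice, 10.65, 9.87, 10.00, 10.11 and 9.87 in FGF21 mice, and 9.89, 9.88, 9.68, 11.03 and 9.76 in controls. As with Pdgfra, control 34 and FGF21 36 were the highest arrays, and aFGFR1/KLB 42 was the lowest of the 15. The difference was −0.38 ± 0.22 for aFGFR1/KLB against control (adjusted p = 0.387) and 0.05 ± 0.22 for FGF21 against control (adjusted p = 0.927). Leaving out control 34 alone gave −0.13 and 0.30. Against FGF21, aFGFR1/KLB mice differed by −0.43 ± 0.22 in the fit over all genes (adjusted p = 0.407, exact permutation p = 0.0238, two-sided and unadjusted).

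Cd34 and Cd248 encode surface glycoproteins of stromal cells. Cd34, a sialomucin, is found on adipose progenitors and on endothelium. Its values were 8.88, 8.43, 8.60, 8.49 and 8.88 in aFGFR1/KLB mice, 9.15, 8.89, 8.88, 9.60 and 8.93 in FGF21 mice, and 8.83, 8.66, 8.76, 10.47 and 8.96 in controls. All 5 aFGFR1/KLB values lay below all 5 FGF21 values, although the highest aFGFR1/KLB value (8.8835) and the lowest FGF21 value (8.8845) almost touched. The difference was −0.43 ± 0.28 for aFGFR1/KLB against FGF21. Its exact permutation p was 0.00794, the smallest that 5 against 5 arrays allow, while limma's adjusted p was 0.504. Cd34 was the 1 marker of 8 whose groups did not overlap here, as was the case for 4.69% of all genes tested and, with aFGFR1/KLB the lower, for 2.3%. Against control, Cd34 differed by −0.48 ± 0.28 with aFGFR1/KLB and by −0.05 ± 0.28 with FGF21 (adjusted p = 0.388 and 0.95). Leaving out control 34 alone gave −0.14 with aFGFR1/KLB and 0.29 with FGF21.

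Cd248, endosialin, marks fibroblasts and perivascular cells. It read 7.48, 6.84, 7.20, 6.98 and 7.33 in aFGFR1/KLB mice, 8.11, 7.28, 7.46, 8.09 and 7.75 in FGF21 mice, and 7.69, 7.24, 7.46, 9.28 and 7.76 in controls. Control 34 lay 1.17 above the next array, and the 3 lowest values were all from aFGFR1/KLB mice. Cd248 had the lowest p among the markers for aFGFR1/KLB against control, with means of 7.17 ± 0.26 in aFGFR1/KLB mice and 7.89 ± 0.81 in controls (SD, n = 5 each) and a difference of −0.72 ± 0.31 (unadjusted p = 0.0343, adjusted p = 0.21 in limma; exact permutation p = 0.0397). On the 13 other arrays, without control 34 and FGF21 36, the difference was −0.37 ± 0.17 (adjusted p = 0.183). With arrays weighted by their residual spread, which gave FGF21 36 a weight of 0.201 and control 34 one of 0.165, the difference was −0.52 (adjusted p = 0.0458). FGF21 mice differed from controls by −0.15 ± 0.31 (adjusted p = 0.843).

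Dpp4, Pi16 and Mfap5 mark the adventitial fibroblasts and progenitors. Dpp4, a cell-surface dipeptidyl peptidase, read 6.27, 4.94, 5.32, 5.46 and 5.97 in aFGFR1/KLB mice, 6.57, 5.56, 5.78, 6.04 and 6.11 in FGF21 mice, and 6.04, 5.14, 6.00, 7.32 and 5.81 in controls. Pi16, a secreted protein of the same cells, read 9.04, 7.88, 8.35, 8.29 and 8.81 in aFGFR1/KLB mice, 8.84, 8.50, 7.99, 8.75 and 8.70 in FGF21 mice, and 9.31, 8.21, 8.77, 9.84 and 8.76 in controls. Within the aFGFR1/KLB group both genes were highest in mouse 41, then mouse 45, and lowest in mouse 42. Dpp4 differed from control by −0.47 ± 0.34 with aFGFR1/KLB and by −0.05 ± 0.34 with FGF21 (adjusted p = 0.503 and 0.956), and without control 34 by −0.16 and 0.26. Leaving out aFGFR1/KLB 42 gave −0.31 for the antibody. Pi16 differed from control by −0.50 ± 0.28 with aFGFR1/KLB and by −0.42 ± 0.28 with FGF21 (adjusted p = 0.362 and 0.447), and without control 34 by −0.29 and −0.21. Of the 8 genes, only Pi16 had a negative difference for FGF21 against control with control 34 and FGF21 36 left out (−0.28 ± 0.27, adjusted p = 0.522).

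Mfap5, a glycoprotein of microfibrils, had the widest range among the markers. It read 8.20, 7.30, 7.67, 7.43 and 8.21 in aFGFR1/KLB mice, 9.24, 7.64, 8.32, 8.46 and 8.11 in FGF21 mice, and 8.16, 7.23, 7.66, 9.81 and 8.29 in controls. Control 34 was 3.94-fold above the mean of the other controls and FGF21 36 was 2.15-fold above the mean of the other FGF21 mice, and the groups overlapped throughout. The difference from control was −0.47 ± 0.41 with aFGFR1/KLB and 0.13 ± 0.41 with FGF21 (adjusted p = 0.594 and 0.898). Without the 2 arrays these were −0.07 ± 0.25 and 0.30 ± 0.27 (adjusted p = 0.897 and 0.48).

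Dlk1, preadipocyte factor 1, holds back the differentiation of preadipocytes and is an imprinted gene. Its values spanned the narrowest range, with 5.94, 6.03, 6.29, 6.34 and 6.05 in aFGFR1/KLB mice, 5.98, 6.28, 6.36, 6.26 and 6.26 in FGF21 mice, and 6.19, 6.26, 6.18, 6.79 and 6.15 in controls. Unlike the other markers, Dlk1 was low in FGF21 36, where it ranked 14 of 15. The difference from control was −0.18 ± 0.12 with aFGFR1/KLB and −0.09 ± 0.12 with FGF21 (adjusted p = 0.46 and 0.758), and without control 34 it was −0.06 and 0.03.

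**Figure D1:**
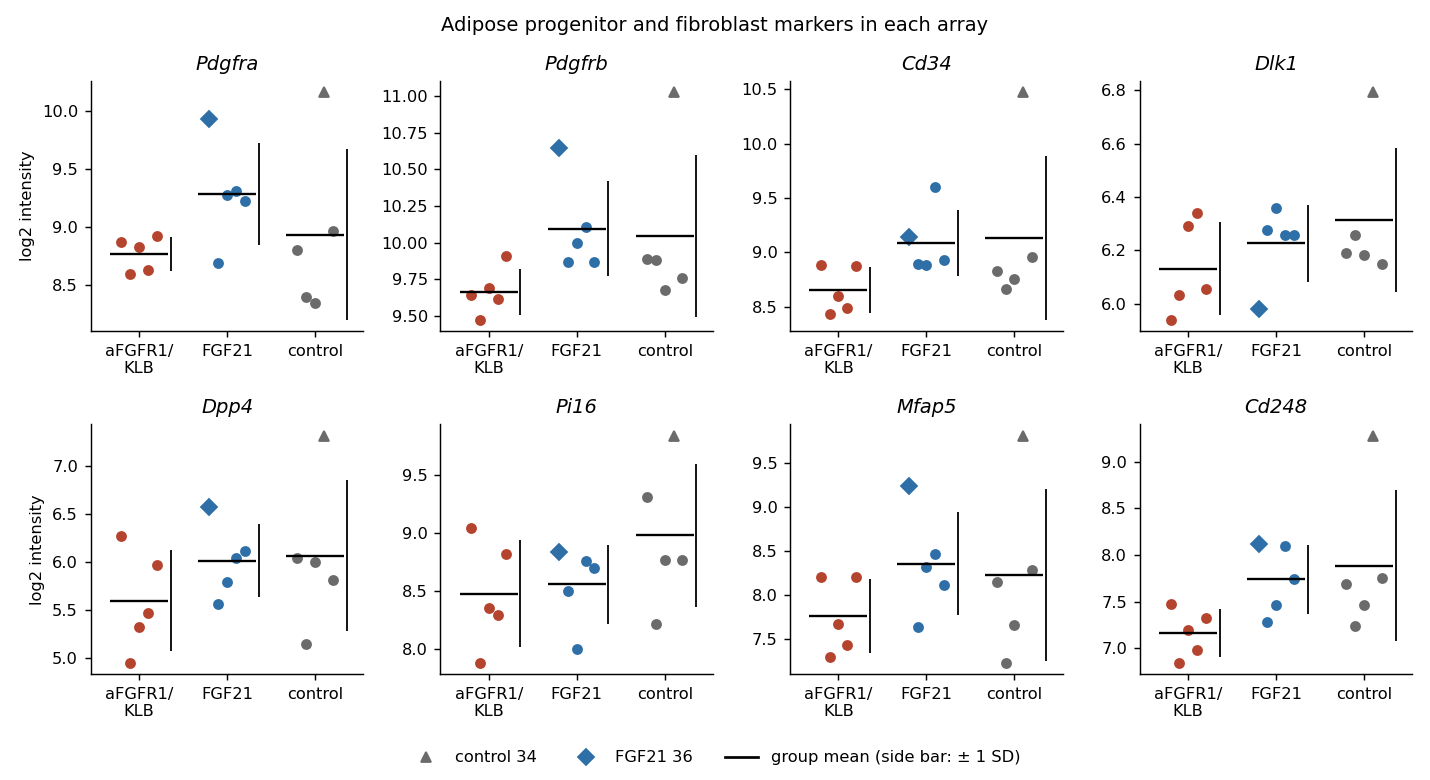
Log2 intensity of the 8 measured markers in each array, by group; lines are group means and side bars ± 1 SD (n = 5 each). Control 34 (triangle) is the highest point in every panel, and FGF21 36 (diamond) is high in the panels of Pdgfra, Pdgfrb, Dpp4, Mfap5 and Cd248 and low in that of Dlk1.

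In the comparison of aFGFR1/KLB with control mice, which asks what the antibody changes in brown fat, 0 of the 8 markers changed (limma, adjusted p under 0.05), where 5.18% of all genes tested did. At an unadjusted p under 0.05 there was 1 marker, Cd248, or 12.5% of the 8, beside 19.4% of all genes. Cd248 was also the 1 marker with an exact permutation p under 0.05, which 21.1% of all genes had. Groups did not overlap for 0 of the 8, and for 8.61% of all genes. All 8 differences were negative, with a median of −0.47, where the median of all genes was −0.02. The count was again 0 of 8 without control 34 and FGF21 36, beside 12.4% of all genes, with 1 marker (Cd248) at an unadjusted p under 0.05 beside 27.1%. The median was then −0.14, with 7 of 8 differences negative. Pdgfra was the exception, at 0.14 ± 0.15 (adjusted p = 0.596). The 95% confidence interval of the difference over all arrays, with 12 degrees of freedom, ran from −1.39 to −0.05 for Cd248 and from −0.80 to 0.47 for Pdgfra.

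For FGF21 against control, 0 of the 8 markers changed, beside 6.32% of all genes, and 0 had an unadjusted p under 0.05 in limma or in the exact permutation test, beside 20.4% of all genes in limma and 16% in the exact test. Groups did not overlap for 0 of the 8, and for 5.25% of all genes. Of the differences 3 were positive (Pdgfra, Pdgfrb and Mfap5) and 5 negative, with a median of −0.05, where that of all genes was −0.02. Leaving out control 34 and FGF21 36 gave 0 of 8 again, beside 16.2% of all genes, and 1 marker (Pdgfra) at an unadjusted p under 0.05, beside 30.9%. On those 13 arrays 7 of 8 differences were positive, with a median of 0.14. Cd34, Dlk1, Dpp4 and Cd248, negative over all arrays, were positive there, at 0.27, 0.09, 0.13 and 0.11. Leaving out control 34 alone gave all 4 a positive difference (0.29, 0.03, 0.26 and 0.20), and leaving out FGF21 36 alone turned none of them. Cd34 and Dpp4 were also positive, by less than 0.1, without FGF21 37 or FGF21 38. Pdgfrb and Mfap5, positive over all arrays, were both negative without FGF21 36 (−0.09 each) or control 33 (−0.04 and −0.02), Pdgfrb also without control 35 and Mfap5 also without control 32 (−0.02 and −0.12). The confidence interval over all arrays ran from −0.28 to 0.99 for Pdgfra and from −0.76 to 1.01 for Mfap5.

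Between the treatments, aFGFR1/KLB against FGF21, 0 of 8 markers changed, beside 0.372% of all genes, and 0 had an unadjusted p under 0.05 in limma, beside 13.5%. All 8 differences were negative with a median of −0.43, and stayed so without the 2 arrays at a median of −0.32; the medians of all genes were 0.01 and 0.00. On those 13 arrays 0 of 8 changed, beside 1.83% of all genes, and 4 markers had an unadjusted p under 0.05 in limma, beside 15.4% of all genes: Pdgfrb (−0.29 ± 0.09, adjusted p = 0.117), Cd34 (−0.42 ± 0.15, adjusted p = 0.193), Cd248 (−0.48 ± 0.17, adjusted p = 0.201) and Pdgfra (−0.36 ± 0.15, adjusted p = 0.281). With all arrays the same 4 genes had an exact permutation p under 0.05, as 16.3% of all genes did, at 0.0238 for Pdgfrb, 0.00794 for Cd34, 0.0397 for Cd248 and 0.0317 for Pdgfra, each unadjusted. Pi16 was the flattest, at −0.08 ± 0.28 with all arrays (95% confidence interval −0.69 to 0.53) and −0.01 ± 0.25 without the 2. The 3 comparisons share groups, so their differences are not independent.

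**Figure D2:**
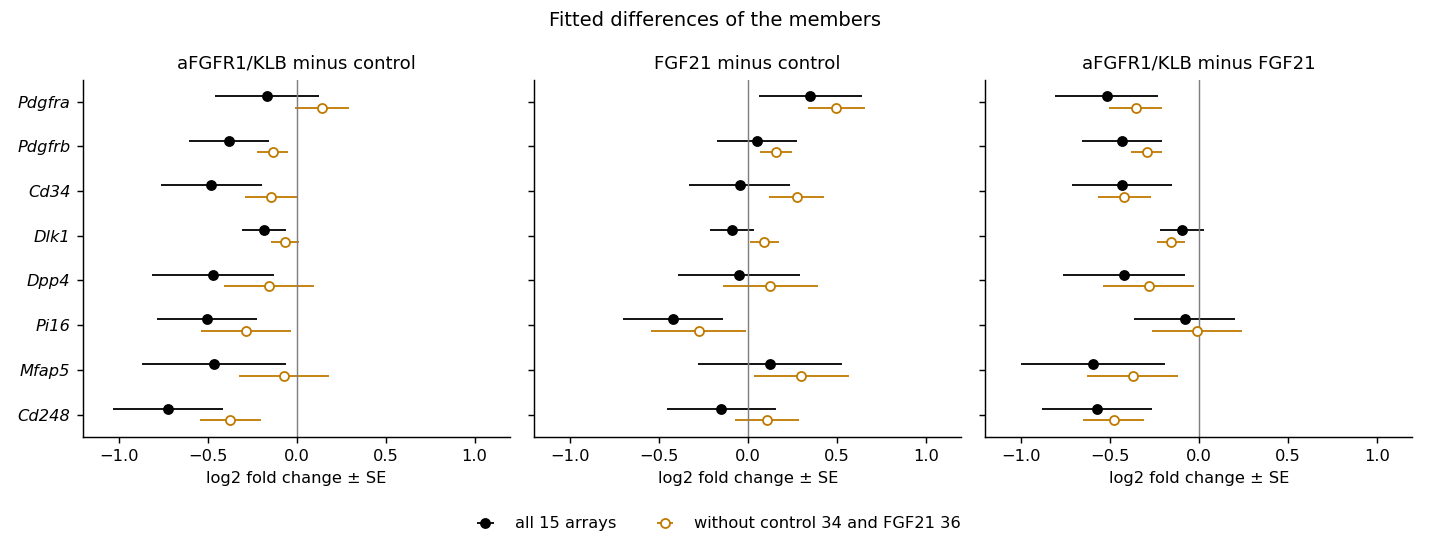
Log2 fold change ± SE of each marker in the 3 comparisons, with all 15 arrays (filled) and without control 34 and FGF21 36 (open). All 8 filled points lie below 0 for aFGFR1/KLB against control and against FGF21, and in the middle panel 7 of 8 open points lie above 0.

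The spread between mice of a group was wide for these genes. The residual SD was 0.38 to 0.70 for 7 markers, between the 91st and the 97th percentile of all genes, whose median was 0.16; that of Dlk1 was 0.20. Leaving out control 34 and FGF21 36, the residual SD of Pdgfrb was 0.13, close to the median of all genes of 0.12, while those of Dpp4, Pi16 and Mfap5 stayed at 0.43, 0.42 and 0.43. Those of Pdgfra, Cd34 and Cd248 were 0.25, 0.24 and 0.28, between the 90th and the 93rd percentile, and that of Dlk1 was 0.12. The markers other than Pdgfrb and Dlk1 thus varied among mice of 1 group beyond these 2 arrays.

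Control 34 held the highest value of all 15 arrays for each of the 8 markers, at 1.51-fold (Dlk1) to 3.94-fold (Mfap5) above the mean of the other controls. The mean of 15 fibroblast and matrix genes was above its mean over all arrays by 0.95 in FGF21 36 and by 1.18 in control 34. Macrophage markers (15 genes) were above by 1.76 in FGF21 36 and 1.35 in control 34, and proliferation genes (9 genes) by 1.14 in FGF21 36 and 1.67 in control 34. Endothelial markers deviated by −0.11 in FGF21 36 and 0.03 in control 34, and mural cell markers by 0.13 in FGF21 36 and 0.06 in control 34. The part of these cell types in the markers' values was not tested.

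Over the groups, the summed linear intensity of the macrophage list ranged from 11975 to 21695 in aFGFR1/KLB mice, from 8858 to 63040 in FGF21 mice and from 7378 to 54300 in controls. All 15 macrophage genes, all 15 fibroblast and matrix genes and all 9 proliferation genes were lower with aFGFR1/KLB than with FGF21, with medians of −0.58, −0.48 and −0.65, as were the 8 markers. Without FGF21 36 and control 34 these medians were −0.25, −0.36 and −0.48, and that of the markers was −0.32. None of those genes passed the test there. Their part in the markers' difference between the treatments was not tested.

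**Figure D3:**
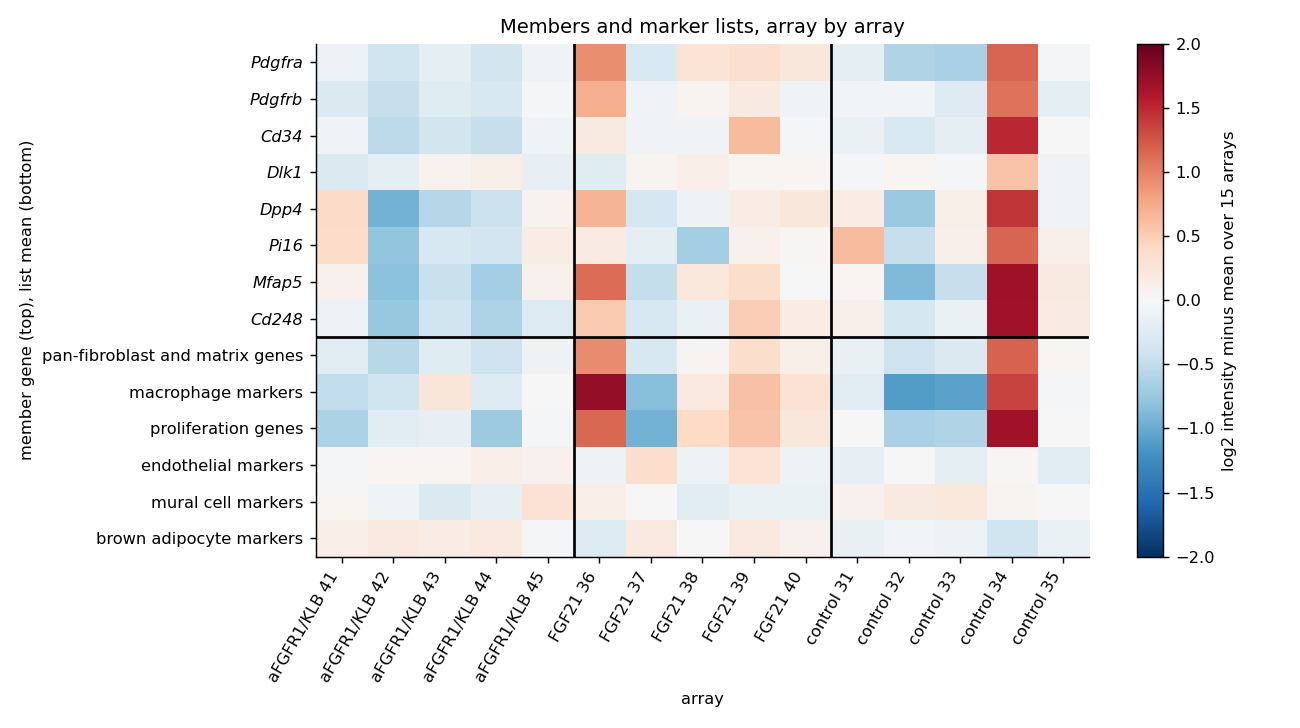
Log2 intensity minus the mean over the 15 arrays, for the 8 markers (above the line) and for the means of 6 lists of cell type genes (below it). Control 34 and FGF21 36 are red for most markers and for the fibroblast, macrophage and proliferation lists; the endothelial and mural lists stay between −0.29 and 0.35 in all arrays.

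The markers were also compared with each other from mouse to mouse. Over all 15 arrays the 28 pairs of markers correlated with Pearson's r between 0.30 and 0.96, but control 34 sits at the far end of every pair, so correlations were read over the 13 arrays other than control 34 and FGF21 36. There r ranged from −0.36 to 0.89 with a median of 0.59, and 13 of 28 pairs passed at an adjusted permutation p under 0.05 by Pearson's r and 7 by Spearman's rho, adjusted over the 28 pairs. The share of pairs of other genes that would pass was not computed. Whether these correlations are particular to the markers was therefore not tested. Cd34 and Cd248 were the closest pair (r = 0.89, rho = 0.86, permutation p = 1e-05 and 0.00026, adjusted p = 0.00028 and 0.00364), where 1e-05 is the smallest p that 100000 resamples give. Without the 2 arrays farthest from the median of Cd34, r was 0.79 over 11 arrays, and r was 0.88 when each value was taken relative to its group's mean.

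Dpp4 and Pi16 went together among mice, with r = 0.80 and rho = 0.78 over 13 arrays (permutation p = 0.00091 and 0.00254, adjusted p = 0.00425 and 0.0154). For this pair r was 0.69 without the 2 arrays farthest from the median of Dpp4 and 0.87 relative to group means. Pdgfra followed Mfap5 (r = 0.83, rho = 0.88, permutation p = 0.00038 and 0.0002, adjusted p = 0.00355 and 0.00364; r = 0.84 without the 2 farthest). Pdgfra and Pi16 showed no such relation over 13 arrays (r = 0.14, rho = 0.17, permutation p = 0.636 and 0.579, adjusted p = 0.713 and 0.653). For them r was 0.42 relative to group means and 0.20 without the 2 farthest arrays. Dlk1 was not positively correlated with Pi16 (r = −0.36, rho = −0.51, permutation p = 0.229 and 0.0757, adjusted p = 0.305 and 0.125; r = −0.69 without the 2 farthest), nor with Dpp4 (r = −0.21). No batch or scan date is given in the labels, so correlations within a batch could not be computed.

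**Figure D4:**
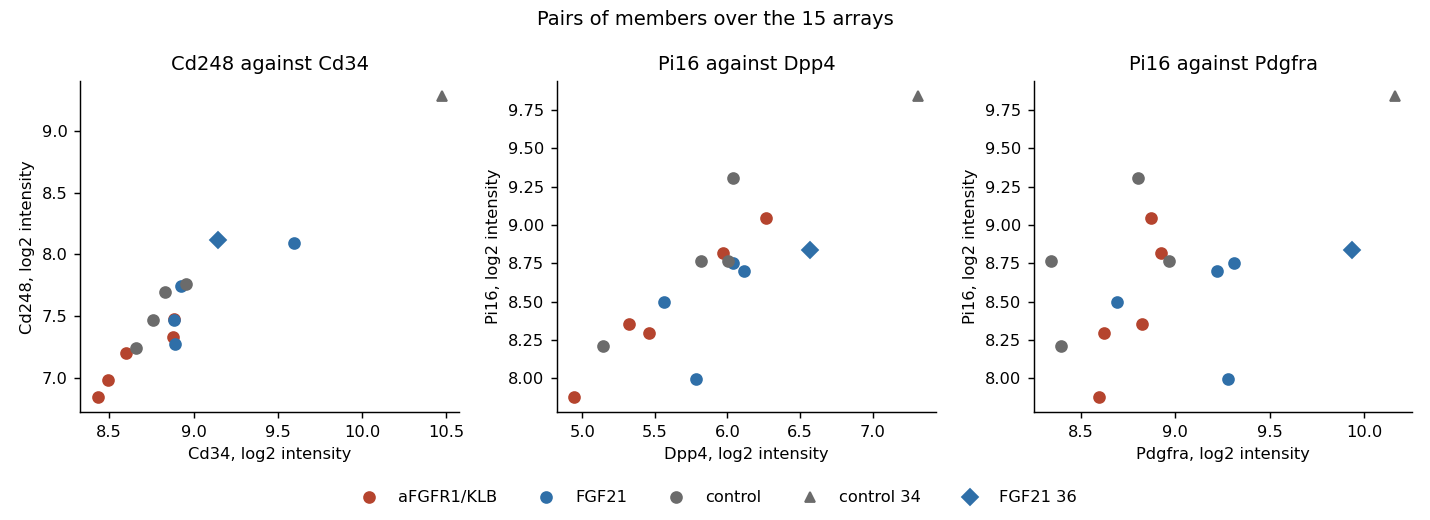
Log2 intensity of Cd248 against Cd34, of Pi16 against Dpp4 and of Pi16 against Pdgfra in the 15 arrays. Without control 34 and FGF21 36 the first pairs correlate at r = 0.89 and 0.80 and the last at 0.14.

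The proportion of the markers to each other was read within arrays. Each pair was taken as a difference of log2 intensities whose absolute size has no meaning between probe sets. For Pdgfra minus Cd248 this difference was 1.40, 1.76, 1.63, 1.64 and 1.60 in aFGFR1/KLB mice, 1.82, 1.42, 1.81, 1.22 and 1.48 in FGF21 mice, and 1.11, 1.16, 0.88, 0.88 and 1.21 in controls. Every treated value lay above every control value, control 34 included, although FGF21 39 (1.220) and control 35 (1.210) differed by little. The mean was 1.60 ± 0.13 with aFGFR1/KLB and 1.05 ± 0.16 in controls (SD, n = 5 each), a difference of 0.56 with an exact permutation p of 0.00794. With FGF21 it was 1.55 ± 0.26, a difference from control of 0.50 with the same exact p. Among single genes, groups did not overlap for 8.61% with aFGFR1/KLB against control and for 5.25% with FGF21 against control. The share of pairs of other genes whose groups do not overlap was not computed. Whether this separation is particular to the markers was therefore not tested.

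That contrast of Pdgfra with Cd248 was chosen after its values were seen, among 84 tests of 28 pairs in 3 comparisons. Of these 6 had an exact p under 0.05 and 0 passed after adjustment over the 84 (lowest adjusted p = 0.333). With 5 against 5 arrays no exact p can be under 0.00794, so a few pairs alone could not pass that adjustment. It therefore cannot decide whether this pair differs. The differences were 0.51 with aFGFR1/KLB and 0.39 with FGF21 on the 13 arrays without control 34 and FGF21 36 (exact permutation p = 0.00794 and 0.0286). Both comparisons share the controls. Against Pi16, Pdgfra was higher with FGF21 than in controls by 0.77 (exact permutation p = 0.0238, and 0.0571 without the 2 arrays), with means of 0.73 ± 0.45 with FGF21 and −0.04 ± 0.39 in controls (SD, n = 5 each) and overlapping groups.

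**Figure D5:**
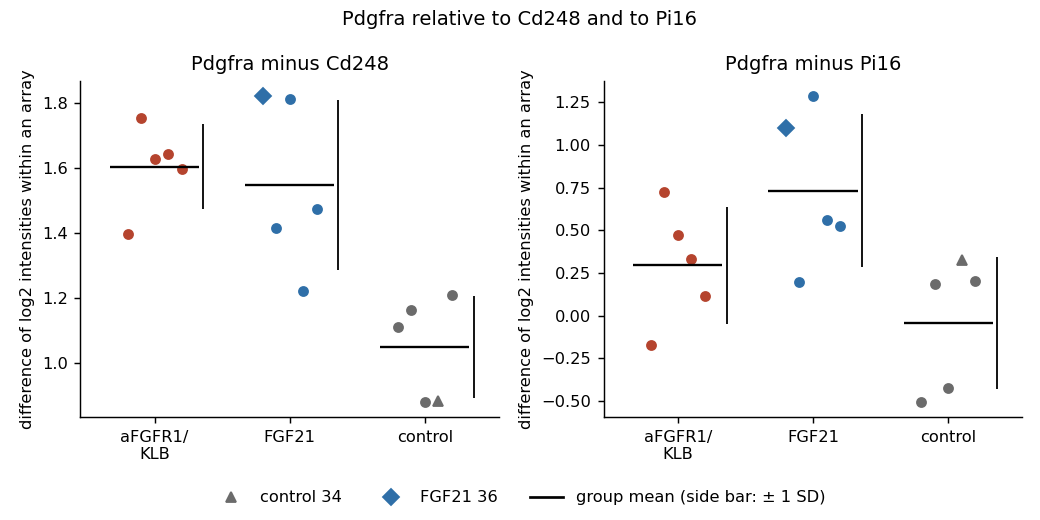
Pdgfra minus Cd248 and Pdgfra minus Pi16 within each array, as differences of log2 intensity, by group (lines are means, side bars ± 1 SD, n = 5 each). For Cd248 all treated points lie above the 5 control points, the highest of which is 1.21.

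Genes outside the list that tracked each marker were found over all genes tested, as a description. For Dpp4 these were Dcn (decorin), Clec3b (tetranectin) and Fndc1 over 15 arrays (r = 0.96, 0.95 and 0.95), and Clec3b, Dcn and Cmklr1 over 13 (0.93, 0.92 and 0.91). Pi16 was tracked by Efhd1, a mitochondrial calcium-binding protein, at 0.93 over 15 arrays and 0.92 over 13, then by Fndc1 (0.91 and 0.87), with Scara3 next over 15 arrays (0.89) and Entpd2 over 13 (0.84). Mfap5 went with the fibril-associated collagen Col14a1 (0.97 and 0.95) and with Timp2, an inhibitor of matrix proteases (0.97 and 0.94), with Rnase4 (0.97) over 15 arrays and Serpinf1 (0.92) over 13. Of these genes Dcn, Clec3b, Col14a1 and Timp2 encode proteins of the extracellular matrix or its turnover.

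Pdgfra was tracked by the collagen Col5a2 (0.98 and 0.96), by Mrc1, the macrophage mannose receptor, and Morf4l2 over 15 arrays (both 0.98), and by Thbs2, thrombospondin-2, and Cers6 over 13 (0.96 and 0.95). The macrophage gene was thus among the closest to Pdgfra over 15 arrays and was replaced without the 2 arrays that stood apart. Cd248 went with Emilin2 (0.96 and 0.92), with Sulf1 and Ccn3 over 15 arrays (both 0.96), and with Thy1, a fibroblast surface antigen, and Tnxb, tenascin-X, over 13 (0.94 and 0.91). Cd34 went with Srpx, C1qtnf6 and S1pr3 over 15 arrays (0.95, 0.94 and 0.94) and with Il1rl2, Itpripl2 and Bicc1 over 13 (0.94, 0.92 and 0.90). Pdgfrb went with Cbl, Dsel and Lima1 over 15 arrays (0.97, 0.97 and 0.96) and with Myadm, Nrep and Itpripl2 over 13 (each 0.90). Dlk1 had the weakest likeness, with Pgm2, Sp1 and Kctd18 over 15 arrays (0.90, 0.89 and 0.84) and Sdad1, Zadh2 and Mterf1a over 13 (0.84, 0.82 and 0.81).

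Other genes of the same cells were read from lists. Centring the arrays on 43 ribosomal protein genes ended many of the calls below, which are named with the other settings in the closing section. Of 9 tested genes that mark Dpp4-type progenitors besides the 8 markers, such as Cd55, Wnt2 and Efhd1, 0 changed in any comparison, and 8 of 9 were lower with aFGFR1/KLB than in controls (median −0.39; −0.32 without the 2 arrays). Efhd1 had the lowest p, at 5.19 with aFGFR1/KLB and 6.00 in controls (−0.81 ± 0.29, adjusted p = 0.134), and −0.70 ± 0.29 with FGF21 (adjusted p = 0.189). On the 13 arrays without control 34 and FGF21 36, Efhd1 differed by −0.50 and −0.39 (adjusted p = 0.135 and 0.238). Without the 2 arrays Limch1 with FGF21 differed from control by −1.10 (adjusted p = 0.0172), and by −0.67 with all arrays (adjusted p = 0.292). In that comparison without the 2 arrays, 1 of the 9 genes was called higher and 1 lower, beside 16.2% of all genes called. Of 8 markers of committed preadipocytes, Aoc3, an amine oxidase of mature and committed fat cells, fell with aFGFR1/KLB by 0.48 (adjusted p = 0.0129) and with FGF21 by 0.41 (adjusted p = 0.0219). Sparcl1, of the same list, differed the other way with aFGFR1/KLB, by 0.30 (adjusted p = 0.0633), and by 0.33 without the 2 arrays (adjusted p = 0.0112). The median of the list with aFGFR1/KLB was 0.12, and 0.15 without the 2 arrays, with 5 of 8 positive over all arrays. With FGF21 it was 0.24, and 0.36 without the 2 arrays, with 6 of 8 positive over all arrays. Called were 1 lower with aFGFR1/KLB, and 1 higher and 1 lower with FGF21, beside 5.18% and 6.32% of all genes. The FGF21 call of Aoc3 ended without control 31, control 32, control 33, FGF21 37 or FGF21 39. Cxcl14, a chemokine, rose with FGF21 by 0.99 ± 0.27 (adjusted p = 0.0415), and that call held only when control 33, control 34, FGF21 36 or FGF21 39 was the array left out.

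Of 6 markers of Clec11a-type stromal cells, Fmo2, a flavin monooxygenase, rose with both treatments. It averaged 8.38 with aFGFR1/KLB, 8.24 with FGF21 and 7.62 in controls, rising by 0.77 ± 0.11 and 0.62 ± 0.11 (adjusted p = 0.00199 and 0.00508) and passing in all 15 fits without 1 array. F3, tissue factor, fell with aFGFR1/KLB by 0.52 (adjusted p = 0.0295), a call that ended without control 32, control 33 or aFGFR1/KLB 41, 42 or 44. Fmo2 was the only gene of the 6 that was higher with aFGFR1/KLB, and the list median was −0.29. With FGF21 2 were higher and 4 lower (median −0.18). Called were 1 higher and 1 lower with aFGFR1/KLB, and 1 higher with FGF21, beside 5.18% and 6.32% of all genes. Of 15 fibroblast and matrix genes 1 changed with aFGFR1/KLB, beside 5.18% of all genes, and 0 with FGF21. Twist2, a transcription factor of mesenchymal cells, fell with aFGFR1/KLB by 0.39 (adjusted p = 0.0147) and passed in all 15 fits without 1 array. With FGF21 it was at −0.25 (adjusted p = 0.0857), and at −0.30 without the 2 arrays (adjusted p = 0.0168). Without the 2 arrays 1 of the 15 genes was called higher and 1 lower with each treatment. The shares of all genes called were then 12.4% with aFGFR1/KLB and 16.2% with FGF21.

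Of the PDGF receptors' ligands and decoy, 0 of the 4 tested passed with all arrays. Pdgfb, the ligand made by endothelium, differed from control by 0.30 ± 0.10 with aFGFR1/KLB and 0.33 ± 0.10 with FGF21 (adjusted p = 0.0923 and 0.0545). Pdgfd, another ligand of the beta chain, differed by −0.35 ± 0.15 and −0.52 ± 0.15 (adjusted p = 0.199 and 0.0517). All of these passed without control 34 and FGF21 36, with Pdgfb at 0.34 and 0.40 (adjusted p = 0.0402 and 0.0204) and Pdgfd at −0.45 and −0.55 (adjusted p = 0.0486 and 0.0198). The comparisons share the controls.

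Among 10 tested genes of microfibrils and elastic fibres, the family of structures to which Mfap5 belongs, Ltbp2 fell with FGF21 by 0.92 ± 0.16 (adjusted p = 0.00402, all 15 fits without 1 array) and with aFGFR1/KLB by 0.66 ± 0.16 (adjusted p = 0.0296). Ltbp3, which anchors latent TGF-beta, fell with aFGFR1/KLB by 0.37 (adjusted p = 0.0302). Both aFGFR1/KLB calls ended in 7 of the 15 fits without 1 array: for Ltbp2 without control 31, 32 or 33 or aFGFR1/KLB 41, 42, 43 or 45, and for Ltbp3 without control 31, 32 or 35 or aFGFR1/KLB 41, 42, 43 or 44. Among 12 tested imprinted genes besides Dlk1, Ndn (necdin) fell with aFGFR1/KLB by 0.47 (adjusted p = 0.0171). That call ended when its probe sets were averaged (−0.29, adjusted p = 0.0752). With FGF21, Peg3 was at −0.65 (adjusted p = 0.0508), and at −0.85 without the 2 arrays (adjusted p = 0.00643). Sgce with aFGFR1/KLB was at −0.38 (adjusted p = 0.0701), and at −0.42 without them (adjusted p = 0.0357). The imprinted list had 3 positive and 9 negative differences with aFGFR1/KLB, and 5 and 7 with FGF21. Its medians were −0.31 and −0.08, and 0.01 and 0.00 without the 2 arrays. Called were 1 of 12 with aFGFR1/KLB and 0 with FGF21, beside 5.18% and 6.32% of all genes.

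Of 10 tested regulators of the progenitor-to-adipocyte step, 1 rose and 1 fell with aFGFR1/KLB, and 1 rose and 2 fell with FGF21, where 5.18% and 6.32% of all genes changed. Without the 2 arrays 3 rose and 1 fell with aFGFR1/KLB and 3 rose and 2 fell with FGF21, beside 12.4% and 16.2% of all genes. Klf15, a transcription factor of late adipogenesis, rose by 1.17 ± 0.16 with aFGFR1/KLB and by 1.17 ± 0.16 with FGF21 (adjusted p = 0.00117 and 0.000868), with means of 9.03, 9.02 and 7.86 in aFGFR1/KLB, FGF21 and control mice. Zfp423, a factor of committed preadipocytes that keeps white adipocytes from a brown program, fell with FGF21 by 0.60 ± 0.09 (adjusted p = 0.00144). It was higher with aFGFR1/KLB than with FGF21 by 0.46 ± 0.09 (adjusted p = 0.0438), a call that held only when control 33, control 34 or FGF21 36 was the array left out. Cebpa, a master regulator of adipogenesis, fell with aFGFR1/KLB by 0.43 (adjusted p = 0.0241), which ended without control 32, 33 or 35 or aFGFR1/KLB 41, 42, 43 or 45. With FGF21 Cebpa fell by 0.46 (adjusted p = 0.0138), a value named after it was seen and not rerun without single arrays.

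Relatives of the surface markers and the vessel cells that share them were read too. Called with aFGFR1/KLB were 2 of 9 relatives, 2 of 11 mural and 1 of 13 endothelial markers, beside 5.18% of all genes. With FGF21 the counts were 2, 1 and 1, beside 6.32% of all genes. Of 9 relatives of Cd34, Cd248 and Dpp4, Thbd, thrombomodulin, rose with aFGFR1/KLB by 0.47 (adjusted p = 0.0199) and with FGF21 by 0.53 (adjusted p = 0.00892). Its aFGFR1/KLB call ended without control 32 or aFGFR1/KLB 41. Dpp7, a lysosomal dipeptidase, rose by 0.54 and 0.48 (adjusted p = 0.0283 and 0.0415), and leaving out 1 array ended the call in 8 and 12 of 15 fits. The aFGFR1/KLB call of Dpp7 held without control 34 or aFGFR1/KLB 45, among the arrays compared, and its FGF21 call held only without control 34, FGF21 38 or aFGFR1/KLB 45. Of 11 mural cell markers, Mcam fell by 1.28 ± 0.19 with aFGFR1/KLB and 1.07 ± 0.19 with FGF21 (adjusted p = 0.00178 and 0.00388, all 15 fits without 1 array). The mural list as a whole had 5 positive and 6 negative differences with aFGFR1/KLB (median −0.07). With FGF21 2 were positive and 9 negative (median −0.14). Cspg4, the pericyte proteoglycan NG2, fell with aFGFR1/KLB by 0.49 (adjusted p = 0.0211), a call lost without control 31, 32 or 33 or aFGFR1/KLB 41 or 43. With FGF21 Cspg4 was at −0.35 (adjusted p = 0.0828), and at −0.50 without the 2 arrays (adjusted p = 0.00102). Of 13 endothelial markers, Sox17 rose by 0.63 with aFGFR1/KLB and 0.42 with FGF21 (adjusted p = 0.0055 and 0.0321), the second lost without control 31, 32 or 35 or FGF21 37 or 39. Without the 2 arrays Emcn was also higher with aFGFR1/KLB, by 0.65, and Kdr with FGF21, by 0.53 (adjusted p = 0.00683 and 0.0327). In the Ly6 family of Ly6a only Ly6d and Ly6e were tested, and neither passed, with Ly6e at −0.03 ± 0.31 and 0.24 ± 0.31 against control.

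As a check of the treatments, 5 of 9 FGF feedback genes rose with aFGFR1/KLB and 6 of 9 with FGF21, where 2.69% and 2.64% of all genes rose. Dusp4, a MAP kinase phosphatase, averaged 9.44 with aFGFR1/KLB, 10.40 with FGF21 and 8.19 in controls (adjusted p = 0.000315 and 3.81e-07 against control).

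Probe sets other than the one used were above the filter for 3 markers. The other probe set of Mfap5 correlated with the one used at r = 0.95 and differed from control by −0.57 with aFGFR1/KLB and 0.12 with FGF21. That of Pdgfrb correlated at 0.95 and gave −0.31 and −0.04. That of Dpp4 correlated at 0.63 only, spanned 5.26 to 5.92 and gave 0.04 and 0.11, so its signs differ from those of the probe set used. None of these passed the test over all probe sets. The other probe set of Dlk1 was below the filter (mean 4.75) and correlated at −0.66 with the one used (mean 6.22). Probe sets below the filter for Pdgfra, Dpp4 and Pi16 correlated with the ones used at 0.53 to 0.91.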

How the data were processed

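The deposited series table lists intensities that the authors normalised with RMA, per the submitters' processing notes, and its values are linear; version, chip definition and genome build are not given in the sources used here. RMA equalises the distribution of values between arrays, so changes are relative to the rest of the array. Array medians lay between 50.6 and 52.1. Groups came from the sample titles, and replicate numbers do not repeat between groups. Arrays give no read depth, and their number limits the precision.

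The intensities were log2-transformed and not normalised again. Of 45101 probe sets, 34958 carried 1 gene symbol in the platform annotation, 932 several and 9211 none listed. Each gene was read from its probe set with the highest mean, and tested if its mean log2 value exceeded 5.06, the 40th percentile over probe sets. A model of the 3 groups was fitted to all 15 arrays by lmFit and eBayes of limma 3.58.1 (R 4.3.3; 12 residual degrees of freedom, two-sided tests), with p adjusted by Benjamini and Hochberg over all genes tested within a comparison and a threshold of 0.05. The script was tested on simulated data. Single values were also tested by exact two-sided permutation over arrays, and correlations by 100000 permutations. Confidence intervals are for the difference of group means, taken from limma's SE with the 12 residual degrees of freedom. They rest on the spread between these mice and are not a range that holds single mice. Members, lists and tests were chosen with earlier results of these data known. Genes named were all members, up to 2 genes per list and comparison with the smallest p, the 3 genes most correlated with each member over 15 and over 13 arrays, and defining markers of cell types; the pairs of Pdgfra with Cd248 and Pi16 were singled out after their values were seen. Alternatives changed the filter, the probe set, the normalisation, an added offset, array weights, the fit and the arrays included. Ly6a, proteins and the promoters of Mfap5, Cd248 and Pdgfrb were not analysed here.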

Additional observations from a re-analysis of the deposited data

Results flagged for a closer look

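The 8 markers in 3 groups gave 24 sets of 5 arrays. In 5 sets an array's gap to its nearest neighbour, divided by the group's range, was above Dixon's critical value of 0.71. Chance alone gives this in about 1 of 20 independent groups. These sets are not independent, since the markers were read on the same arrays and control 34 supplied most of the flags. Whether 5 of 24 exceeds chance was therefore not tested, and the share of all genes flagged by this rule was not computed. Control 34 was the high array for Pdgfrb (0.844), Cd34 (0.837), Dlk1 (0.828) and Cd248 (0.746) in the control group. FGF21 36 was the low array for Dlk1 in the FGF21 group (0.736), the only set in which it stood out by this measure.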

How the results depend on the processing

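No paired analysis was possible because replicate numbers 31 to 45 do not repeat between groups. Over 633 alternative values of the 8 markers in 3 comparisons, 602 kept their sign, 31 did not, and 2 passed the test. Cd248 passed for aFGFR1/KLB against control with array weights (−0.52, so 1 of 8 called), where 2307 of all 13174 genes were called. Pdgfra passed for FGF21 against control without control 34 (0.66, 1 of 8 called, and 0 to 1 over the fits without 1 array). Those fits called 463 to 2097 of all 13174 genes. Exact permutation put Pdgfra (−0.52), Pdgfrb (−0.43), Cd34 (−0.43) and Cd248 (−0.57) under an unadjusted p of 0.05 for aFGFR1/KLB against FGF21, as it did 16.3% of all genes. For aFGFR1/KLB against control, Pdgfra ran from −0.31 to 0.14 without 1 array (0.14 without control 34 and FGF21 36), Dlk1 was 0.0103 with its probe sets averaged, and Dpp4 0.0361 on its other probe set. For FGF21 against control, the ranges without 1 array were −0.0863 to 0.30 for Pdgfrb, −0.17 to 0.29 for Cd34, −0.13 to 0.0321 for Dlk1, −0.28 to 0.26 for Dpp4, −0.12 to 0.52 for Mfap5 and −0.31 to 0.20 for Cd248. Without both arrays Cd34, Dlk1, Dpp4 and Cd248 were at 0.27, 0.0939, 0.13 and 0.11, and with array weights at 0.12, 0.067, 0.21 and 0.0463; other probe sets gave −0.0425 for Pdgfrb and 0.11 for Dpp4. For aFGFR1/KLB against FGF21, Pi16 ran from −0.22 to 0.0696 without 1 array and was 0.0055 with ribosomal centring, and Dlk1 was 0.0449 with probe sets averaged. The cause of these turns was not tested.

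Counts over all genes moved more. For aFGFR1/KLB against control the count of 682 was 141 with ribosomal centring, 2307 with array weights, 1631 without both arrays and 336 to 1140 without 1 array. For FGF21 against control the count of 833 was 183, 2855 and 2138 under the same settings, 322 with only these groups fitted and 463 to 2097 without 1 array. For aFGFR1/KLB against FGF21 the count of 49 was 9, 832 and 241, then 79 with 32 added before log2, 87 with only these groups, 81 with a trended and robust fit, and 10 to 251 without 1 array. Ribosomal centring moved the median of all genes for aFGFR1/KLB against control by 0.10; the share of calls that were higher was 80.9%, against 51.9% without it, and 68.3% against 41.8% for FGF21. Between the treatments it was 22.2% with that centring, 56.5% with array weights and 34.7% as reported. That centring ended the calls of Aoc3, Cxcl14, F3, Twist2, Ltbp2, Ltbp3, Cebpa, Ndn, Thbd and Cspg4, of Fmo2 and Sox17 with FGF21, and of Zfp423 and Dusp4 between the treatments. Fitting only the groups compared ended those of Aoc3, Cxcl14 and Sox17 with FGF21 and of Dpp7. Dropping the filter ended those of Cxcl14, of Dpp7 with FGF21 and of Zfp423 between the treatments; Cxcl14 also lost its call with probe sets averaged and with quantile normalisation. Pdgfra against Pi16 with FGF21 missed the threshold without both arrays (0.77, exact permutation p = 0.0571).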
